A study of Mus musculus with 12 samples.

Results

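The genes described here are 35 members of the antioxidant and detoxification programme of NRF2: Nfe2l2, which encodes NRF2, Keap1, which encodes its inhibitor, and known NRF2 targets. A member was measured by the probe set whose annotation gives its symbol and no other, and by the brightest of these over 12 arrays where there was a choice, as for Cbr1 and Keap1. That gave 30 of the 35 members, among 22180 genes named in the same way. Prdx1, Tkt, Esd and Ftl1 had only probe sets annotated with further genes and G6pdx was not listed under that symbol, so these 5 were not analysed here.

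RNA came from MLE12 cells, a mouse lung epithelial line immortalised with the SV40 large T antigen, and was read on Affymetrix arrays. There were 4 groups of 3 arrays: cells given NANCI shRNA, cells given the scrambled control shRNA of that set, cells given LL34 shRNA and cells given the scrambled control shRNA of the LL34 set. NANCI and LL34 are long noncoding RNAs. All 12 cultures had been infected at 60% confluency for 12 hours with pLKO.1 lentivirus and polybrene and were subcultured for 65 hours, in a medium with insulin, transferrin, sodium selenite, hydrocortisone and beta-estradiol. The labels call the replicates biological and do not say whether each had an infection of its own, so the p-values rest on a spread that may be technical.

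NRF2 is a basic leucine zipper transcription factor. In unstressed cells KEAP1 holds it for a CUL3 ubiquitin ligase that leads to its destruction, and electrophiles or oxidants that modify KEAP1 let it accumulate. It then binds antioxidant response elements with small MAF proteins and drives genes for glutathione and thioredoxin, NADPH, quinone reduction, haem breakdown, conjugation and export. In lung epithelium this programme is known for defence against inhaled oxidants and smoke.

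Promoter sequences are shown first, because many targets of NRF2 carry its element near the start of transcription. The letters TGACNNNGC and TGAGNNNGC, 2 forms of the element's core, were searched on both strands in the 250 bases before each start in RefSeq promoters of assembly GRCm38.p6. Of the 35 members, 30 had a promoter in the table (not the same 30 as those measured), and 16 of these (53.3%) held at least 1 match, against 25.7% of 27025 genes in the table. TGACNNNGC occurred in 33.3% of the 30, against 11.5% of all genes, and TGAGNNNGC in 23.3%, against 16.3%. Counted by window, 17 of 39 member windows (43.6%) had a match, against 23.0% of 32851. A match is a description of these letters and not a binding site.

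Of 16 members that were called in opposite directions after the NANCI and LL34 shRNAs (described in the paragraphs that follow), 11 had a promoter and 7 had a match. The 5 of those 7 with the greatest difference between the changes are printed 5′ to 3′ on the gene's strand, base 1 before the start last, with matches in capitals. Osgin1 lies at chr8:119436897-119437146 (+), Srxn1 at chr2:152105274-152105523 (+), Gclm at chr3:122245307-122245556 (+), Gstp1 at chr19:4037913-4038162 (−) and Txnrd1 at chr10:82858956-82859205 (+).
Osgin1: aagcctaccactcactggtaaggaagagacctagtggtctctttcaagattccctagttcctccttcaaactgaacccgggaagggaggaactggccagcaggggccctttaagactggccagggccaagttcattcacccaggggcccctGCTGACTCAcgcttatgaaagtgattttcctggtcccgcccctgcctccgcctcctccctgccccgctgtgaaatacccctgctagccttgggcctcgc
Srxn1: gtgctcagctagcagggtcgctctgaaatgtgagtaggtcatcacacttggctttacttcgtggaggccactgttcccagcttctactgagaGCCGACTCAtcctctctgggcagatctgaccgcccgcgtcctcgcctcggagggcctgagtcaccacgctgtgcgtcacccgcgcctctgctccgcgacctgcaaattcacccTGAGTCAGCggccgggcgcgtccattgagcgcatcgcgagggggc
Gclm: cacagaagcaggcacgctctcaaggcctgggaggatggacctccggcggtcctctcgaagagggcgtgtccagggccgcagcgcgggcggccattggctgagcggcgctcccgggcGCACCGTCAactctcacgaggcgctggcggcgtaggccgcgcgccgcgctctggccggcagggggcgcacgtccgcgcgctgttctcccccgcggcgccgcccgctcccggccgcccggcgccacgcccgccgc
Gstp1: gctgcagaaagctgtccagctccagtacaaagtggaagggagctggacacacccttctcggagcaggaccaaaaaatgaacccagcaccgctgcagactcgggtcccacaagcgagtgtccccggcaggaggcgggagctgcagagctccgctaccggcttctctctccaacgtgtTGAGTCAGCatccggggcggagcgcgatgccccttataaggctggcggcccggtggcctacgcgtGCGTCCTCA
Txnrd1: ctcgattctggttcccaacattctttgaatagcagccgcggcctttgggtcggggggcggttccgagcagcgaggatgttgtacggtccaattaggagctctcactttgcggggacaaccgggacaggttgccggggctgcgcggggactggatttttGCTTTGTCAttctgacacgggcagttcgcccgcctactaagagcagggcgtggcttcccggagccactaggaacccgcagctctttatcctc
The match in Osgin1, the second in Srxn1 and the first in Gstp1 also hold TGAGTCA, the AP-1 heptamer, on 1 strand. Osgin1, Srxn1 and Gstp1 matched TGAGNNNGC, and Gclm and Txnrd1 matched TGACNNNGC.

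Most members were higher in cells given NANCI shRNA and lower in cells given LL34 shRNA, each against the scrambled arrays of its own set. After NANCI shRNA 20 of 30 members rose and none fell, by limma with Benjamini-Hochberg adjustment over 41345 probe sets and a threshold of 0.05. Of all named genes 13.2% rose and 13.6% fell in that comparison. After LL34 shRNA 22 of 30 fell and none rose, where 10.3% of named genes fell and 9.77% rose. At an unadjusted p under 0.05 the falls after NANCI shRNA numbered 1 and the rises after LL34 shRNA 0. The median change of the members was 0.44 after NANCI shRNA and −0.51 after LL34 shRNA on the log2 scale, against 0.0042 and −0.019 over all named genes. All 3 NANCI shRNA arrays lay above all 3 scrambled arrays for 21 members (20.5% of named genes did so) and below them for 1, Nfe2l2 (20.0%). LL34 shRNA arrays lay below their scrambled arrays for 25 members (17.2% of named genes) and above them for 0 (18.1%). The members were chosen with earlier results of these data known, so these counts and those below are not independent evidence.

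These counts depend on the scrambled arrays each shRNA group is set against. With all 6 scrambled arrays as 1 control group, 9 members were higher after NANCI shRNA (median 0.18, where the median of all named genes moved to 0.13) and 12 were lower after LL34 shRNA (median −0.33, named genes −0.14). Of the 20 NANCI calls 9 were kept: Gsr, Taldo1, Cbr3, Hmox1, Fth1, Gstp1, Gstp2, Ephx1 and Osgin1. Of the 22 LL34 calls 11 were kept: Nfe2l2, Srxn1, Cbr3, Hmox1, Blvrb, Gsta3, Gstm1, Gstp1, Ephx1, Abcc4 and Osgin1. Set differences then enter both the changes and their spread. Leaving out any 1 array gave 19 to 20 rises after NANCI shRNA and 19 to 22 falls after LL34 shRNA.

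**Figure D1:**
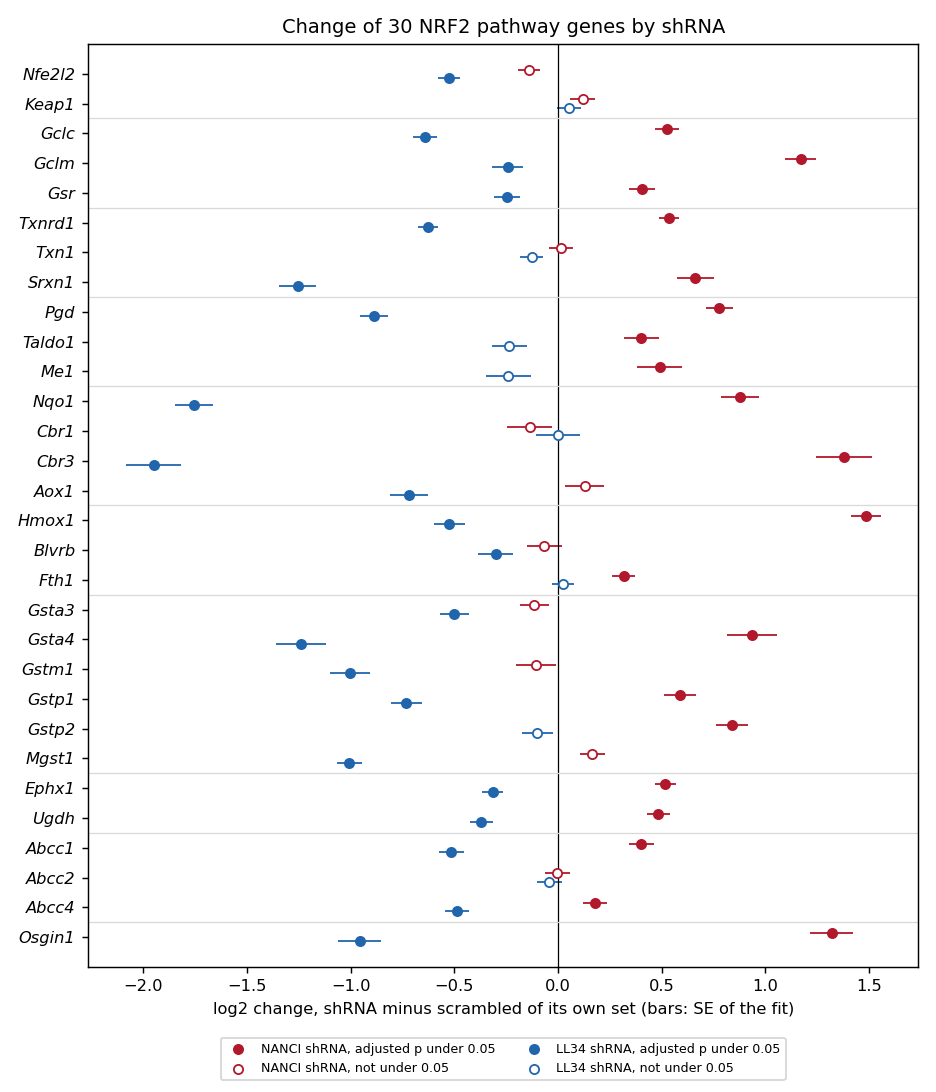
Log2 change of each of the 30 measured members (points, with the SE of the fit as bars), NANCI shRNA in red and LL34 shRNA in blue, each minus the scrambled arrays of its own set; filled points have an adjusted p under 0.05. Red points lie mostly right of 0 and blue points mostly left, from 1.48 for Hmox1 after NANCI shRNA to −1.95 for Cbr3 after LL34 shRNA.

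A few facts of the arrays bear on these values. Array medians were 6.84 to 6.88 in the NANCI set and 6.54 to 6.61 in the LL34 set, so the sets look as if they were normalized apart. Each shRNA group was therefore set against the scrambled arrays of its own set. The spread was still shared by all 12 arrays, and the difference between the changes and the pooled control cross the sets. With only the 6 arrays of the own set fitted, 19 members rose after NANCI shRNA and 20 fell after LL34 shRNA. Replicates of a group correlated at 0.986 or more. LL34_control replicate 3 had an upper quartile of 8.50, against 8.65 to 8.71 on the other 5 arrays of its set. Without it 21 members fell after LL34 shRNA (median −0.49) and 26 had a called difference between the changes. Exact ties between arrays of a group occurred for 3590 probe sets with LL34 shRNA and 2712 with its scrambled shRNA, and for 70 with NANCI shRNA and 43 with its scrambled shRNA. Gsr, Mgst1 and Abcc2 read the same on all 3 LL34 shRNA arrays, so that their SD of 0 there says nothing of the spread and their errors may be too small. Sfta3-ps, listed with the synonym Nanci, averaged 8.98 in NANCI shRNA cells and 11.90 in scrambled cells. It was also lower in LL34 shRNA cells, at 11.33 against 12.01 in their scrambled cells (−0.67, limma adjusted p = 0.00284), and its neighbour Nkx2-1 was lower too with NANCI shRNA (10.13, against 11.13 in scrambled cells, adjusted p = 4.95e-06) and with LL34 shRNA (10.39 against 10.65, adjusted p = 0.0327). The LL34 RNA was not analysed here, so the LL34 shRNA groups were not checked by their target.

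RNA for NRF2 itself fell with its targets in the LL34 set and had no called change in the NANCI set. Nfe2l2 read 12.57, 12.54 and 12.63 (log2 signal) on the NANCI shRNA arrays, against 12.76, 12.74 and 12.67 on the scrambled arrays. All 3 NANCI shRNA arrays were lower, but the change of −0.14 (95% interval −0.26 to −0.022, limma adjusted p = 0.101) missed the threshold. In the LL34 set Nfe2l2 read 12.31, 12.26 and 12.22 with shRNA, against 12.80, 12.82 and 12.74 with the scrambled shRNA. It fell by 0.53 there (SE 0.0537, limma adjusted p = 7.94e-05), to 69.4% of the scrambled level, with no overlap of arrays. The NANCI change missed the threshold in the deposited values, and passed it once all 12 arrays were quantile-normalized together (−0.18, adjusted p = 0.0436) or with trend and robust moderation (adjusted p = 0.0271).

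Keap1 showed no called change in either set. It read 8.93, 8.82 and 8.74 on the NANCI shRNA arrays, against 8.67, 8.72 and 8.75 on the scrambled arrays, and 8.73, 8.73 and 8.67 on the LL34 shRNA arrays, against 8.63, 8.70 and 8.64 on theirs. The groups overlapped in both sets. Its changes were 0.12 (95% interval −0.013 to 0.25, adjusted p = 0.228) and 0.053 (−0.078 to 0.18, adjusted p = 0.651), so that changes above 0.25 in size lie outside both intervals. A dimmer probe set of Keap1 measured −0.081 and −0.0066 (adjusted p = 0.669 and 0.977).

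Glutathione genes moved together: all 3 rose after NANCI shRNA and all 3 fell after LL34 shRNA. Gclm, the modifier subunit of the ligase that sets the pace of glutathione synthesis, read 11.85, 11.74 and 11.87 on the NANCI shRNA arrays, against 10.65, 10.63 and 10.65 on the scrambled arrays. Its rise of 1.17 (SE 0.0745, limma adjusted p = 1.7e-06) made 225% of the scrambled level, and the groups lay far apart relative to their spread. With LL34 shRNA Gclm read 11.51, 11.51 and 11.42, against 11.65, 11.62 and 11.89 with the scrambled shRNA. That fall of 0.24 (adjusted p = 0.0479) sat at the threshold and was lost when any array other than LL34_control replicates 1 and 2 was left out, and LL34_control replicate 3 alone took it to −0.16 when left out (adjusted p = 0.12).

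Gclc, the catalytic subunit of that ligase, rose by 0.53 (SE 0.0568, adjusted p = 5.73e-05) after NANCI shRNA and fell by 0.64 (adjusted p = 3.12e-05) after LL34 shRNA. Gsr, the reductase that regenerates glutathione, rose by 0.40 (SE 0.0634, adjusted p = 0.000771) and fell by 0.25 (adjusted p = 0.0217). The LL34 call of Gsr was lost without any 1 of the 3 LL34 shRNA arrays or LL34_control replicate 1 (adjusted p from 0.0611 to 0.0722). Only Gsr of these 3 kept its NANCI call against all 6 scrambled arrays, and no LL34 call of the 3 was kept there, where Gclm measured 0.29 (adjusted p = 0.46).

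Of 3 thioredoxin genes measured, 2 rose after NANCI shRNA and 2 fell after LL34 shRNA. Srxn1, sulfiredoxin, which repairs over-oxidised peroxiredoxins, read 10.34, 10.21 and 10.45 on the NANCI shRNA arrays, against 9.67, 9.75 and 9.59 on the scrambled arrays, a rise of 0.66 (SE 0.0889, limma adjusted p = 0.000261). LL34 shRNA arrays read 9.31, 9.22 and 9.22 for Srxn1, against 10.49, 10.35 and 10.67 with the scrambled shRNA. It fell by 1.25 there (adjusted p = 7.34e-06), to 41.9%, and neither pair of groups overlapped. Txnrd1, the selenoprotein that reduces thioredoxin, rose by 0.54 (SE 0.0491, adjusted p = 1.85e-05) and fell by 0.63 (adjusted p = 1.43e-05). Txn1, cytosolic thioredoxin, measured 0.014 (95% interval −0.11 to 0.14, adjusted p = 0.929) and −0.13 (−0.25 to −0.0021, adjusted p = 0.176). All 3 LL34 shRNA arrays of Txn1 (12.25, 12.32 and 12.25) lay below the scrambled arrays (12.41, 12.44 and 12.35), and it was called lower with array weights (−0.15, adjusted p = 0.0455).

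All 3 genes of NADPH supply that were measured rose after NANCI shRNA, and 1 of them fell after LL34 shRNA. Pgd, the pentose phosphate dehydrogenase that makes NADPH, rose by 0.78 (SE 0.0657, limma adjusted p = 1.07e-05) to 172% and fell by 0.89 (adjusted p = 9.97e-06) to 54.1%. Taldo1, transaldolase of the same pathway, rose by 0.40 (adjusted p = 0.00487) and measured −0.23 after LL34 shRNA (adjusted p = 0.086). Me1, cytosolic malic enzyme, rose by 0.49 (adjusted p = 0.00678) and measured −0.24 after LL34 shRNA (adjusted p = 0.179). All LL34 shRNA arrays lay below the scrambled arrays for Taldo1 and Me1. The Taldo1 value was called lower under 5 alternatives, with an adjusted p of 0.0186 (quantile normalization), 0.0443 (all 6 scrambled arrays, −0.37), 0.0481 (level filter), 0.0256 (array weights) and 0.0488 (without NANCI_shRNA replicate 1). Me1 was called lower under 2, with an adjusted p of 0.0289 (array weights) and 0.0268 (without NANCI_control replicate 2).

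Among 4 genes of quinone, carbonyl and aldehyde metabolism 2 rose and 3 fell. Nqo1, the quinone reductase most used as a readout of NRF2, read 9.40, 9.25 and 9.29 on the NANCI shRNA arrays, against 8.43, 8.34 and 8.54 on the scrambled arrays. LL34 shRNA arrays read 8.79, 8.74 and 8.91 for Nqo1, against 10.47, 10.48 and 10.76 on the scrambled arrays. It rose by 0.88 (SE 0.0905, limma adjusted p = 4.08e-05) to 184% after NANCI shRNA and fell by 1.76 (adjusted p = 1.26e-06) to 29.6% after LL34 shRNA, which was the 18th lowest of 22180 named genes. The gap between the scrambled groups, 2.13, was wider than either change: Nqo1 averaged 10.57 ± 0.165 in LL34 scrambled cells and 8.43 ± 0.0997 in NANCI scrambled cells (SD, n = 3 each). Against all 6 scrambled arrays neither call held, with −0.19 (adjusted p = 0.823) and −0.69 (adjusted p = 0.374).

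Cbr3, a carbonyl reductase, showed the widest opposite movement of all 30. Its NANCI shRNA arrays read 9.08, 8.68 and 8.90, against 7.40, 7.57 and 7.56 with the scrambled shRNA, and its LL34 shRNA arrays 6.73, 6.21 and 6.32, against 8.46, 8.31 and 8.35. Cbr3 rose by 1.38 (SE 0.134, limma adjusted p = 2.85e-05) to 260% and fell by 1.95 (adjusted p = 6.15e-06) to 25.9%. NANCI scrambled arrays lay between both shRNA groups, as did LL34 scrambled arrays. Aox1, aldehyde oxidase, measured 0.13 (adjusted p = 0.444) after NANCI shRNA and fell by 0.72 (adjusted p = 0.000376) after LL34 shRNA. Cbr1, the neighbouring carbonyl reductase of broader use, measured −0.14 (95% interval −0.37 to 0.10, adjusted p = 0.501) and −0.00021 (−0.24 to 0.24, adjusted p = 0.999), and its other probe set 0.016 and 0.089 (adjusted p = 0.925 and 0.424).

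Hmox1, haem oxygenase, which degrades haem to biliverdin, carbon monoxide and iron, gave the greatest rise of the members after NANCI shRNA. It read 12.61, 12.34 and 12.42 with NANCI shRNA, against 10.96, 10.99 and 10.97 with the scrambled shRNA. LL34 shRNA arrays read 10.11, 10.12 and 10.00 for Hmox1, against 10.59, 10.54 and 10.68. Hmox1 rose by 1.48 (SE 0.0726, limma adjusted p = 4.17e-07) to 280%, the 28th highest change of all named genes, and fell by 0.52 (adjusted p = 0.000582) to 69.6%. Both calls held against all 6 scrambled arrays. Fth1, the ferritin heavy chain that stores iron, rose by 0.32 (adjusted p = 0.00144) and measured 0.025 after LL34 shRNA (95% interval −0.095 to 0.14, adjusted p = 0.842). Blvrb, a biliverdin and flavin reductase, measured −0.066 (adjusted p = 0.717) and fell by 0.30 after LL34 shRNA (adjusted p = 0.0313), a call lost on leaving out any LL34 array but LL34_control replicate 3 (adjusted p from 0.0592 to 0.112).

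Of 6 glutathione transferases, which couple glutathione to electrophiles, 3 rose after NANCI shRNA and 5 fell after LL34 shRNA. Gsta4, which prefers hydroxynonenal from lipid peroxidation, read 9.70, 9.52 and 9.24 on the NANCI shRNA arrays, against 8.49, 8.50 and 8.67 with the scrambled shRNA, and rose by 0.94 (SE 0.12, limma adjusted p = 0.000193). LL34 shRNA arrays read 8.36, 8.23 and 8.30, against 9.73, 9.51 and 9.35, and Gsta4 fell by 1.24 (adjusted p = 5.72e-05) to 42.3%. Groups were apart in both sets, and both calls were lost against all 6 scrambled arrays (adjusted p = 0.276 and 0.101).

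Gstm1 and the microsomal enzyme gene Mgst1 had a called change in the LL34 set and none in the NANCI set, and the difference between the sets was called for both (0.90 and 1.17, limma adjusted p = 0.00074 and 6.28e-06). Gstm1 read 8.20, 8.31 and 8.25 with NANCI shRNA, against 8.47, 8.38 and 8.24, and the groups overlapped (−0.11, limma adjusted p = 0.563). In the LL34 set it read 7.74, 7.66 and 7.78 with shRNA, against 8.50, 8.88 and 8.80, and fell by 1.00 (SE 0.096, adjusted p = 5.14e-05) to 49.9%. Mgst1 read 9.15, 9.32 and 9.28 with NANCI shRNA, against 9.09, 9.09 and 9.06. This change of 0.17 missed the threshold (adjusted p = 0.0895) and passed it without NANCI_shRNA replicate 1 (0.22, adjusted p = 0.0363). With LL34 shRNA Mgst1 read 8.84 on all 3 arrays, against 9.86, 9.91 and 9.75, and fell by 1.01 (adjusted p = 3.34e-06) to 49.8%.

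The pi class transferase genes Gstp1 and Gstp2 are near-identical copies, so their probe sets may share signal. Gstp1 rose by 0.59 (SE 0.0768, limma adjusted p = 0.000216) after NANCI shRNA and fell by 0.73 (adjusted p = 9.82e-05) after LL34 shRNA. Gstp2 rose by 0.84 (adjusted p = 1.57e-05) and measured −0.10 (adjusted p = 0.468) after LL34 shRNA. A probe set annotated with both measured 0.66 and −0.43 (adjusted p = 3.45e-05 and 0.00125). Gsta3, a dim probe set at the 33rd percentile of mean signal, measured −0.11 (adjusted p = 0.352) and fell by 0.50 (adjusted p = 0.000645).

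Epoxide and glucuronide enzymes moved in opposite directions too. Ephx1, microsomal epoxide hydrolase, rose by 0.52 (SE 0.0506, limma adjusted p = 2.95e-05) and fell by 0.32 (adjusted p = 0.00144), and both calls held against all 6 scrambled arrays. Ugdh, which makes the UDP-glucuronic acid used in glucuronidation, rose by 0.48 (adjusted p = 8.58e-05) and fell by 0.37 (adjusted p = 0.000932). Of 3 pumps that export conjugates, Abcc1 rose by 0.40 (adjusted p = 0.000548) and fell by 0.52 (adjusted p = 0.000188). Abcc4 rose by 0.18 (adjusted p = 0.0463), a call lost when any array other than LL34_control replicate 3 or NANCI_shRNA replicate 2 was left out (adjusted p from 0.0563 to 0.149), and fell by 0.49 (adjusted p = 0.000188). Abcc2, dim at the 39th percentile of mean signal, measured −0.0033 (95% interval −0.13 to 0.13, adjusted p = 0.985) and −0.043 (adjusted p = 0.732).

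Osgin1, a stress-induced inhibitor of growth, read 12.13, 11.92 and 12.02 with NANCI shRNA, against 10.69, 10.76 and 10.66 with the scrambled shRNA. With LL34 shRNA it read 10.47, 10.13 and 10.47, against 11.31, 11.16 and 11.46. It rose by 1.32 (SE 0.104, limma adjusted p = 7.1e-06) to 250% and fell by 0.96 (adjusted p = 0.000126) to 51.5%. Neither pair of groups overlapped, and Osgin1 kept both calls against all 6 scrambled arrays (1.02 and −0.65, adjusted p = 0.00224 and 0.0391). Its promoter, printed above, held 1 match.

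**Figure D2:**
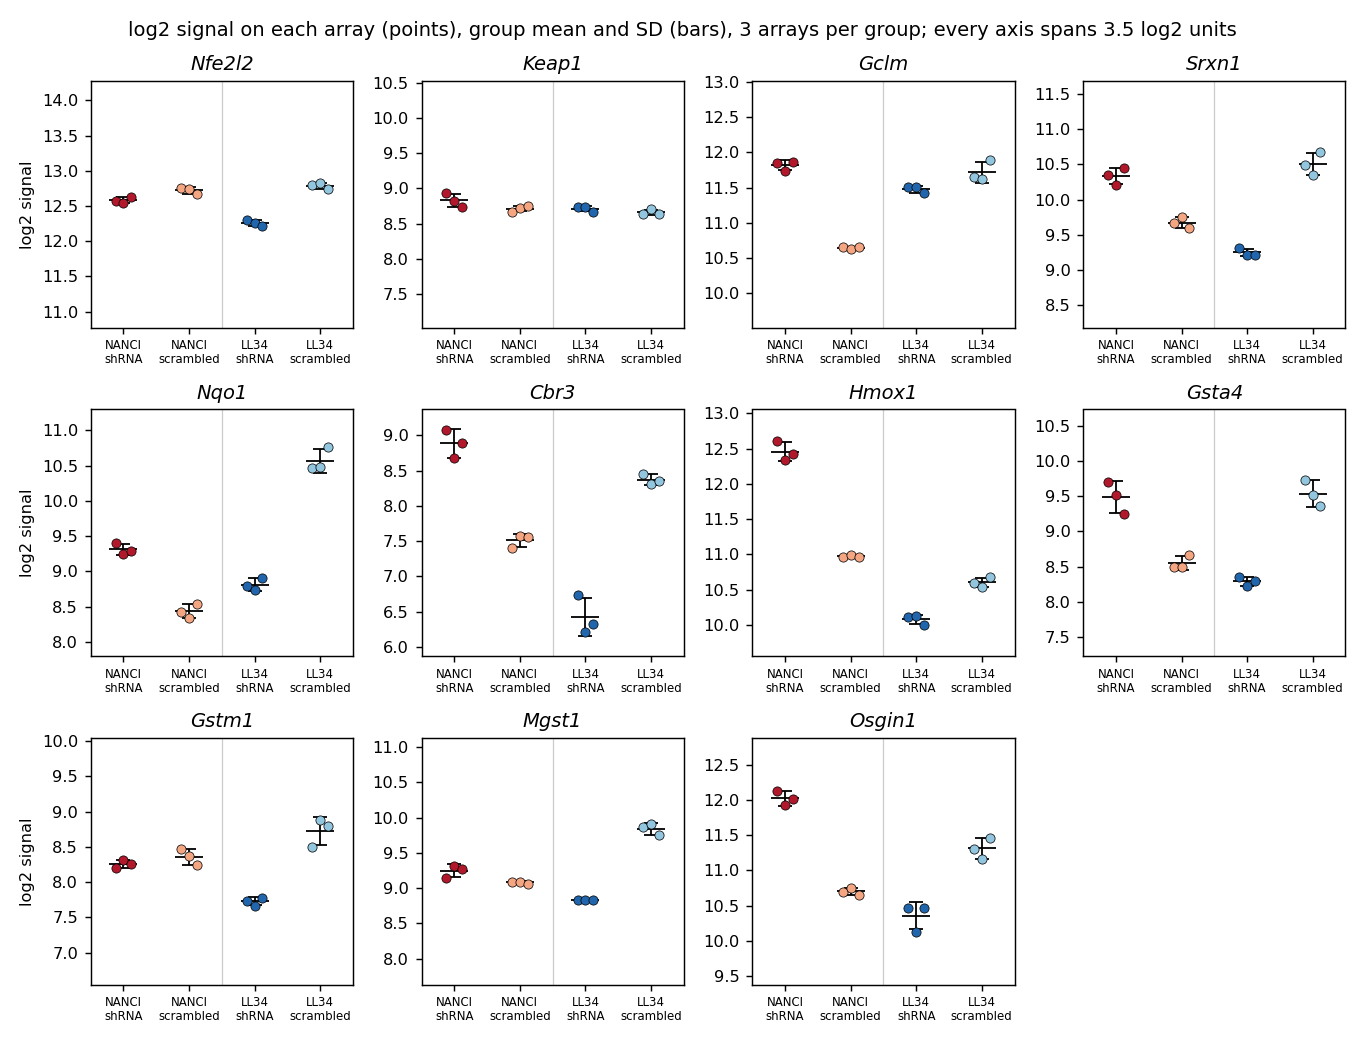
Log2 signal on every array (points) with the group mean and SD (bars, 3 arrays each) for Nfe2l2, Keap1 and the 9 members called with a change of at least 1 in either set. Nqo1 is highest in LL34 scrambled cells (10.57) and Hmox1 in NANCI shRNA cells (12.46), while the 4 groups of Keap1 stay between 8.66 and 8.83 on average.

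The difference between the changes, tested as an interaction in the same limma fit, was positive and called for 25 of 30 members, called negative for none and not called for 5, Keap1, Txn1, Cbr1, Blvrb and Abcc2. Of all named genes 12.0% had a called positive difference and 12.3% a negative one. It was greatest for Cbr3 (3.33, SE 0.19, adjusted p = 1.38e-06), the 3rd highest of all named genes, and for Nqo1 (2.63), the 10th highest. The median difference of the members was 0.87, against 0.027 over all named genes. At an unadjusted p under 0.05 the count of negative differences was 0. The gap between the scrambled groups, described below, enters each of these differences.

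Taken gene by gene, 16 of 30 members both rose after NANCI shRNA and fell after LL34 shRNA, where 2.62% of named genes did so. Against all 6 scrambled arrays 6 members did so, Taldo1, Cbr3, Hmox1, Gstp1, Ephx1 and Osgin1, of which the first is not among the 16. Another 2.90% of named genes moved the other way round, none of the members among them. No member was called in 1 direction in both sets, which 5.28% of named genes were. In the same fit a call in the NANCI set alone was made for 4 members (Taldo1, Me1, Fth1 and Gstp2), in the LL34 set alone for 6 (Nfe2l2, Aox1, Blvrb, Gsta3, Gstm1 and Mgst1) and in neither for 4 (Keap1, Txn1, Cbr1 and Abcc2). Members with greater rises tended to have deeper falls: across the 30 members the changes correlated with Pearson's r = −0.459 and Spearman's rho = −0.419, against −0.0089 and −0.0012 over 22180 named genes. These are descriptions across genes that share arrays. Exceptions were Hmox1 and Gclm, with rises of 1.48 and 1.17 beside falls of 0.52 and 0.24, and Gstm1, with −0.11 beside a fall of 1.00.

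**Figure D3:**
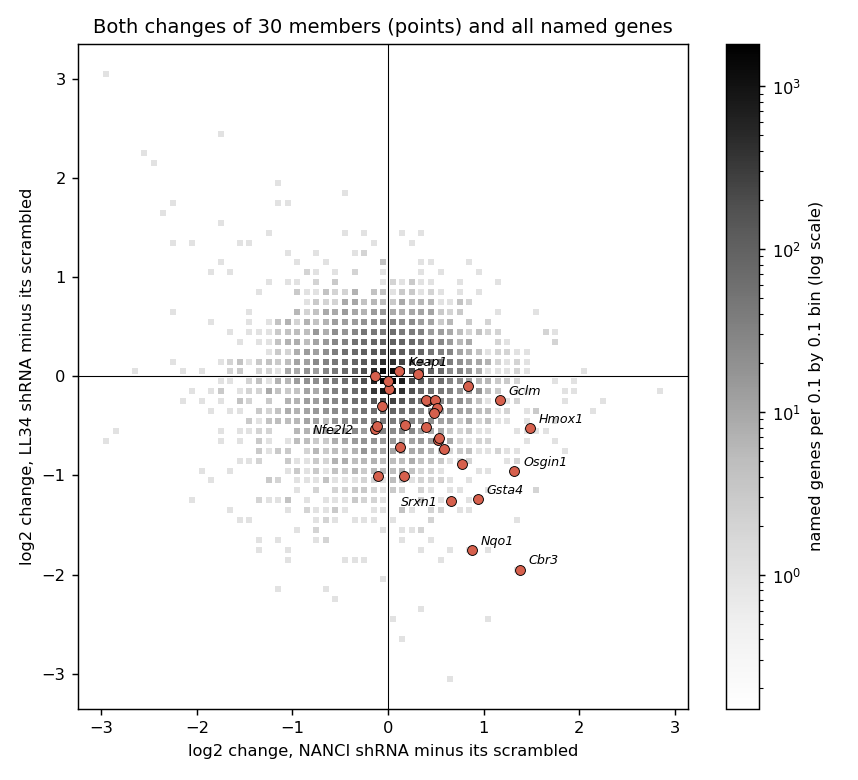
Log2 change after NANCI shRNA (horizontal) against that after LL34 shRNA (vertical), each minus its own scrambled arrays, for the 30 members (red points) and for 22180 named genes as counts per bin (grey, log scale). The members lie mostly at the lower right, where NANCI changes are positive and LL34 changes negative, with Cbr3 (1.38 and −1.95) farthest out.

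Levels across the 4 groups are given as a description, since the sets look separately normalized. The mean log2 signal of the 30 members was 10.32 ± 0.049 in NANCI shRNA cells and 9.85 ± 0.0112 in NANCI scrambled cells, and 9.68 ± 0.0341 in LL34 shRNA cells and 10.26 ± 0.00302 in LL34 scrambled cells (SD, n = 3 each). In order from the highest they ran NANCI shRNA, LL34 scrambled, NANCI scrambled and LL34 shRNA. After quantile normalization over all 12 arrays the means were 10.25 ± 0.0383 and 9.80 ± 0.012 in NANCI shRNA and scrambled cells, and 9.71 ± 0.0345 and 10.32 ± 0.0467 in LL34 shRNA and scrambled cells, so the order of the first pair turned. The scrambled groups thus stood about as far apart as each stood from its shRNA group.

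Member by member, LL34 scrambled cells read above NANCI scrambled cells for 23 of 30 members, with a median difference of 0.30 where all named genes had −0.23. After quantile normalization it was 25 of 30 and 0.48, where named genes had −0.021. Nqo1 (2.13), Pgd (1.23), Gclm (1.07) and Aox1 (1.02) had the greatest such differences, and Abcc2 (−0.41) and Hmox1 (−0.37) the lowest. Between the shRNA groups, NANCI shRNA cells read above LL34 shRNA cells for 28 of 30 members (median 0.44, named genes 0.27), or 26 of 30 after quantile normalization (0.36, named genes 0.070). The share of named genes on each side was not counted in either comparison, and array medians were higher in the NANCI set as deposited. Whether the gap between the scrambled groups lay in the cells or in the handling of the sets was not tested, and the set and the scrambled culture cannot be told apart.

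**Figure D4:**
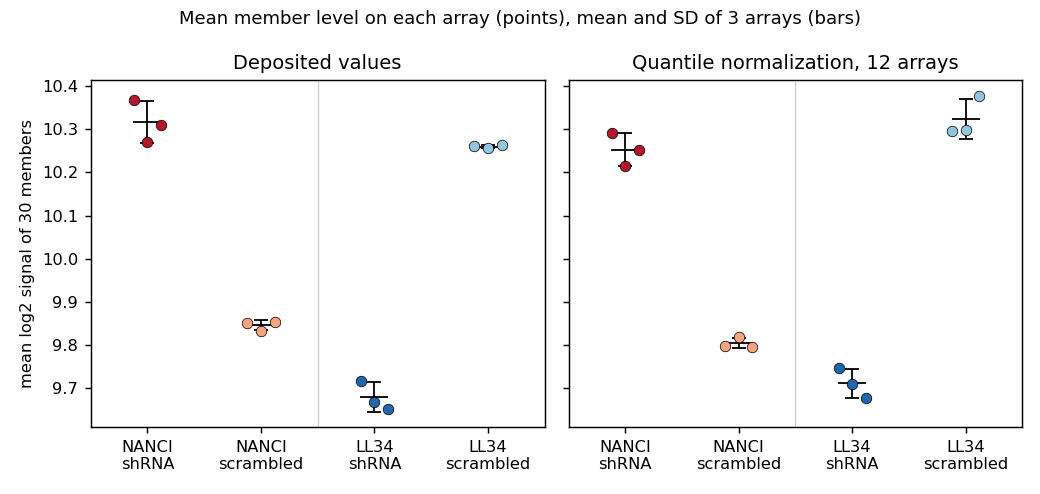
Mean log2 signal of the 30 members on each array (points) with the mean and SD of 3 arrays (bars), for deposited values (left) and after quantile normalization over 12 arrays (right). NANCI shRNA (10.32) and LL34 scrambled (10.26) arrays lie high and NANCI scrambled (9.85) and LL34 shRNA (9.68) arrays low, in either scale.

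Most of the few measured genes that control NRF2 protein were higher in NANCI shRNA cells. Of 6 genes of KEAP1's ligase and of NRF2 degradation, 4 rose (66.7%, against 13.2% of named genes) after NANCI shRNA. Another 1 fell there (16.7%, against 13.6%), and 1 rose after LL34 shRNA (16.7%, against 9.77%). Their median changes were 0.25 and 0.0075. Btrc, the F-box protein of the KEAP1-independent route, rose by 0.82 and 0.40 (limma adjusted p = 1.05e-05 and 0.00226), and Gsk3b, the kinase that marks NRF2 for it, fell by 0.25 after NANCI shRNA (adjusted p = 0.011). Cul1 and Cul3, scaffolds of the ligases, rose by 0.34 and 0.23 after NANCI shRNA (adjusted p = 0.00152 and 0.0321). Sqstm1, the autophagy receptor p62 that sequesters KEAP1 and is itself an NRF2 target, rose by 0.27 (adjusted p = 0.00372) and measured 0.026 after LL34 shRNA (adjusted p = 0.833).

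Of 12 partners and related factors, 2 rose (16.7%, against 13.2% of named genes) and 5 fell (41.7%, against 13.6%) after NANCI shRNA. After LL34 shRNA 3 rose (25%, against 9.77%) and 2 fell (16.7%, against 10.3%). Their median changes were −0.092 and −0.078. Bach1, the repressor that competes with NRF2 at its elements, measured −0.063 after NANCI shRNA (limma adjusted p = 0.569) and fell by 0.72 after LL34 shRNA (adjusted p = 1.57e-05). Mafg, a small MAF partner, rose by 0.23 and 0.32 (adjusted p = 0.0162 and 0.00287). Nfe2l1, the related factor NRF1, fell by 0.64 after NANCI shRNA and rose by 0.50 after LL34 shRNA (adjusted p = 7.41e-06 and 7.71e-05), opposite to the members. Ep300, an acetyltransferase coactivator, fell by 1.00 after NANCI shRNA (adjusted p = 7.32e-07), Bach2 fell by 0.55 (adjusted p = 9.52e-05), and Nfe2l3 fell by 0.84 after LL34 shRNA (adjusted p = 0.000295).

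The wider antioxidant and detoxification genes had more rises than falls after NANCI shRNA and more falls than rises after LL34 shRNA. Of 43 measured, 13 rose (30.2%, against 13.2% of named genes) and 5 fell (11.6%, against 13.6%) after NANCI shRNA (median 0.050). After LL34 shRNA 4 rose (9.30%, against 9.77%) and 18 fell (41.9%, against 10.3%), with a median of −0.18. Ptgr1, an enal reductase, rose by 1.36 after NANCI shRNA (limma adjusted p = 1.52e-05). Idh2, a mitochondrial source of NADPH, rose by 0.76 and fell by 0.44, and Fech, which inserts iron into haem, rose by 0.71 and fell by 0.25 (adjusted p at most 0.0257). Aldh3a1, an aldehyde dehydrogenase, and Glrx, glutaredoxin, fell by 1.39 and 0.87 after LL34 shRNA (adjusted p = 3.84e-06 and 0.000636). Idh1, the cytosolic isocitrate dehydrogenase, fell in both sets, by 0.67 and 1.43 (adjusted p = 0.00191 and 2.21e-05).

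Some of these genes went against the members. Slc7a11, the cystine importer that feeds glutathione synthesis and answers both NRF2 and ATF4, fell by 2.39 after NANCI shRNA (limma adjusted p = 4.32e-07). After LL34 shRNA Slc7a11 rose by 1.68 (adjusted p = 6.92e-06), with 1 value on all 3 shRNA arrays. Txnip, the thioredoxin inhibitor, fell by 0.81 and rose by 1.07 (adjusted p = 4.25e-06 and 2.07e-06). Chac1, which degrades glutathione and is an ATF4 target, fell by 1.18 and rose by 1.71 (adjusted p = 3.31e-06 and 9.14e-07).

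The ATF4 amino acid response list, which holds Slc7a11 and Chac1, had 4 rises (20%) and 15 falls (75%) among 20 genes after NANCI shRNA (median −0.55). After LL34 shRNA it had 19 rises (95%) and 1 fall (5%), with a median of 1.11. Among 15 measured p53 targets 12 rose (80%) and 1 fell (6.67%) after NANCI shRNA (median 1.00). After LL34 shRNA there were 2 rises and 2 falls (13.3% each, median 0.024). Of all named genes 13.2% rose and 13.6% fell after NANCI shRNA, and 9.77% rose and 10.3% fell after LL34 shRNA. The greatest called changes of the ATF4 list were those of Aldh1l2, a mitochondrial folate enzyme, in both sets (−2.50 and 2.11, limma adjusted p = 1.05e-07 and 4.09e-07). Of the p53 list they were a rise of Zmat3 in the NANCI set (1.72, adjusted p = 2.64e-07) and a rise of Cdkn1a, the cell cycle inhibitor p21, in the LL34 set (0.38, adjusted p = 0.00174). Both lists, like the members, were chosen with earlier results of these arrays known, so their direction is not independent evidence. In the NANCI set the NRF2 members' 20 rises and 0 falls stood beside p53 targets mostly of the same sign and ATF4 genes mostly of the opposite sign. In the LL34 set their 22 falls stood beside ATF4 genes mostly of the opposite sign and p53 targets called equally often either way.

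**Figure D5:**
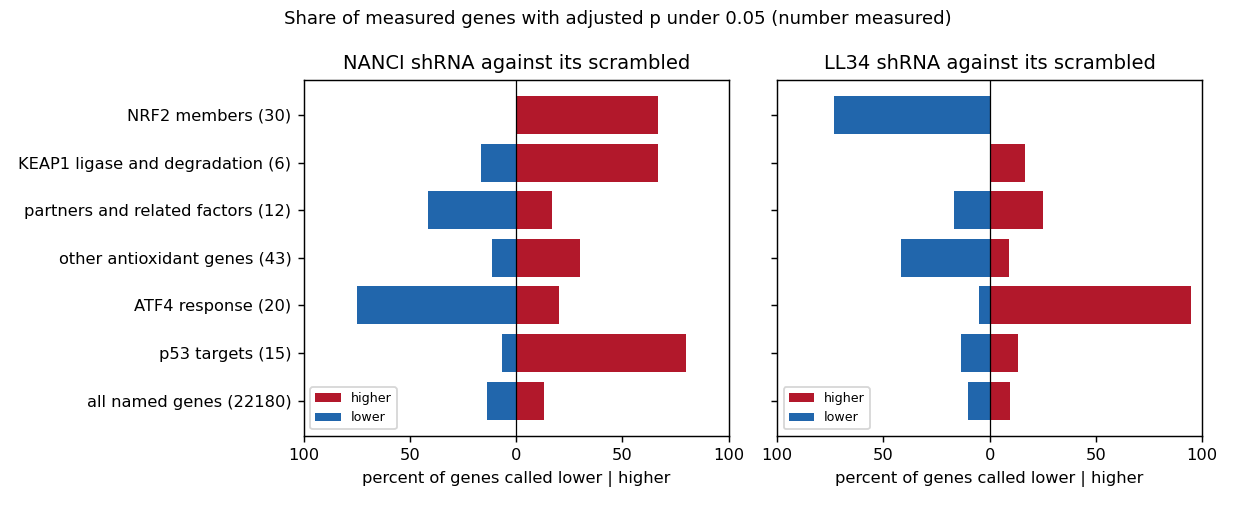
Percent of measured genes of each list with an adjusted p under 0.05, lower to the left and higher to the right, after NANCI shRNA (left) and LL34 shRNA (right), with the number measured in brackets. Of the NRF2 members 66.7% are called higher after NANCI shRNA and 73.3% called lower after LL34 shRNA. Of 20 ATF4 genes 15 are called lower after NANCI shRNA and 19 called higher after LL34 shRNA.

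Cell type markers were set beside these changes. Lung epithelial markers (12 measured) summed to linear signals of 8611 to 9659 on the NANCI shRNA arrays, against 12573 to 13758 on the scrambled arrays. On the LL34 shRNA arrays they summed to 8563 to 9135, against 10974 to 13056. The brightest markers weigh most in such sums. The median marker read 9.37, 9.37 and 9.15 (log2) on the NANCI shRNA arrays, against 9.80, 9.57 and 9.58. With LL34 shRNA this median level was not lower, at 9.83, 9.90 and 9.62, against 9.72, 9.79 and 9.45. Taken as changes gene by gene, most markers were below 0 in both sets. The median change was −0.16 after NANCI shRNA (8 of 12 negative) and −0.19 after LL34 shRNA (10 of 12 negative). After NANCI shRNA 0 of the 12 rose and 4 fell (33.3%, against 13.6% of named genes). After LL34 shRNA 2 rose (16.7%, against 9.77%) and 4 fell (33.3%, against 10.3%). The median of the 12 markers was at the 83.7th percentile of mean signal. Sftpa1, Sftpd, Cldn18 and Epcam, defining genes of lung epithelium, were dimmer, between the 37th and the 45th percentile in this line. Fewer cells of a type and less RNA per cell cannot be told apart in bulk RNA.

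Leukocyte markers (7 measured) summed to 1322 to 1455 on the NANCI shRNA arrays, against 809 to 845. On the LL34 shRNA arrays they summed to 662 to 692, against 754 to 846. Their median level overlapped in both sets: 6.40, 6.33 and 6.49 with NANCI shRNA, against 6.39, 6.44 and 6.31. With LL34 shRNA it was 6.02, 5.98 and 5.90, against 5.89, 6.03 and 6.52. In the NANCI set 2 of 7 (28.6%, against 13.2% of named genes), Cd14 (1.73) and Cd68 (0.88), rose. The changes there were positive for 5 and negative for 2 (median 0.034). After LL34 shRNA all 7 changes were negative (median −0.18) and none was called. Ptprc, the defining marker, was at the 22nd percentile of signal. Endothelial markers (6) summed to 554 to 577, against 681 to 703, in the NANCI set. In the LL34 set they summed to 399 to 410, against 526 to 602. In each set 1 fell, Tek (16.7%, against 13.6% of named genes in the NANCI set and 10.3% in the LL34 set). Mesenchymal markers (8) summed to 4850 to 5261, against 8155 to 9399, in the NANCI set. There 1 fell, Dcn (12.5%, against 13.6% of named genes). In the LL34 set they summed to 8096 to 8694, against 7877 to 8186, with no call. The part of these markers in the members' changes was not tested.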

How the data were processed

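The authors deposited log2 signals per probe set, 1 per array, for 41345 probe sets. Per the submitters' processing notes oligo, RMA and limma were used. Versions, settings and the genome build were not given in the sources used here. Scale is log2 from the values, no gene centring was seen, and each set appears to have been normalized apart. The platform's annotation, which can be old, gave 1 symbol to 23521 probe sets, several to 1814 and none to 16010. Of 22180 named genes 21994 had their Entrez number in a RefSeq gene table of GRCm38.p6.

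From these values limma 3.58.1 in R 4.3.3, with data.table (version 1.17.8), fitted 4 group means to all 12 arrays (8 residual and 2.84 prior degrees of freedom), checked on simulated data. Changes are shRNA minus scrambled, with the SE of the fit. Promoters were searched and figures drawn with Python 3.11.15, pandas 2.3.3 and matplotlib 3.10.9. The number of arrays limits the precision. Members, lists and tests were chosen with earlier results of these data known. Values on each array were given for Nfe2l2, Keap1 and members called with a change of at least 1, and for Txn1 in the LL34 set. Of each other list up to 6 genes per comparison with the greatest called change were named by their change. Slc7a11, Sqstm1, Bach1, Mafg and Chac1 were named besides. Alternatives were quantile normalization, centring, the set's own arrays, a replicate block, 1 pooled control, a level filter, array weights, moderation with trend, left-out arrays and other probe sets.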

Additional observations from a re-analysis of the deposited data

Results flagged for a closer look

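A difference between the changes after NANCI shRNA and LL34 shRNA, tested as an interaction in limma over all probe sets (adjusted p under 0.05), was found for 25 members, all positive on the log2 scale. It was 3.33 for Cbr3, 2.63 for Nqo1, 2.28 for Osgin1, 2.18 for Gsta4 and 2.01 for Hmox1. Each such difference takes in the gap between the scrambled groups. That gap, LL34 minus NANCI, was 2.13 for Nqo1, 1.02 for Aox1, 0.86 for Cbr3 and −0.37 for Hmox1. Between the shRNA groups, NANCI minus LL34, the same genes differed by 0.50, −0.17, 2.47 and 2.38. Next came Srxn1 with 1.92, Pgd with 1.67, Gclm with 1.41, Gstp1 with 1.32, Mgst1 and Gclc with 1.17 each and Txnrd1 with 1.16. Smaller differences were 0.94 for Gstp2, 0.92 for Abcc1, 0.90 for Gstm1, 0.85 for Ugdh and for Aox1, 0.83 for Ephx1, 0.73 for Me1, 0.67 for Abcc4, 0.65 for Gsr and 0.64 for Taldo1. The lowest called ones were 0.39 for Gsta3 and for Nfe2l2 and 0.29 for Fth1. Groups of 3 arrays were too small for the check of single arrays that stand apart.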

How the results depend on the processing

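Of 1830 alternative values of the members' changes, 1721 kept direction and side of the threshold, 65 lost a call, 14 gained one and 30 turned in sign. Of the 1721, 1036 came from leaving out 1 array. An array of the other set left out, or the replicate block, cannot move a change within a set, only its adjusted p. Against all 6 scrambled arrays only 31 values were kept, while 20 lost a call, 1 gained one and 8 turned in sign. Counts of called members stayed within 1.5 times except for 1 fall after NANCI shRNA, Nfe2l2, with quantile normalization and with trend and robust moderation, in place of 0, and against all 6 scrambled arrays. There 9 members were higher after NANCI shRNA (median 0.18) and 12 lower after LL34 shRNA (median −0.33), and 4309 probe sets were called after LL34 shRNA. Members called higher after NANCI shRNA and lower after LL34 shRNA, 16 as deposited, were recounted under the same alternatives after the data had been seen. Against all 6 scrambled arrays there were 6, of which 5 were among the 16. There were 13 with the replicate block, 13 to 16 with 1 array left out, and 14 to 18 under the others. Mean member levels by quantile normalization were 10.25 in NANCI shRNA, 9.80 in NANCI scrambled and 10.32 in LL34 scrambled cells. With arrays centred on their medians they were 10.17 and 9.70 in NANCI shRNA and scrambled cells and 9.81 and 10.42 in LL34 shRNA and scrambled cells. Called probe sets after LL34 shRNA split into 4011 higher and 2755 lower as deposited, 3307 and 3463 by quantile normalization, 3062 and 3035 centred, and 3148 and 2980 without LL34_control replicate 3. With 1 array left out, the members' median ran from 0.40 to 0.48 after NANCI shRNA, from −0.52 to −0.49 after LL34 shRNA and from 0.85 to 0.92 for the difference, and called members from 19 to 20, from 19 to 22 and from 24 to 26.

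Signs turned after NANCI shRNA for Txn1 (−0.043 by quantile normalization, −0.011 against all 6 scrambled arrays, −0.024 to 0.053 with 1 array left out), for Nqo1 (−0.19), Aox1 (−0.38), Mgst1 (−0.21) and Abcc2 (0.20) against all 6 scrambled arrays, for Abcc2 with 1 array left out (−0.024 to 0.015), and on other probe sets for Cbr1 (0.016) and Keap1 (−0.081). After LL34 shRNA they turned for Keap1 (−0.039) and Fth1 (−0.012) by quantile normalization, Fth1 (−0.0076) by centring, Gclm (0.29), Me1 (0.061) and Cbr1 (0.040) against all 6 scrambled arrays, and Abcc2 (0.0045) with array weights. With 1 array left out Cbr1 measured −0.090 to 0.077 and Abcc2 −0.081 to 0.017. Over both probe sets Cbr1 measured 0.044, and on the other one Cbr1 measured 0.089 and Keap1 −0.0066. The difference turned for Abcc2 with array weights (−0.015) and with 1 array left out (−0.021 to 0.078) and for Keap1 over both probe sets (−0.0047) or on the other (−0.074). Of these only Nqo1 and Gclm had been called, and the cause was not tested.

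Replicate numbers did not pair the arrays: same-numbered deviations correlated at −0.009, 0.012 and −0.057 in the NANCI set and 0.045, −0.050 and −0.125 in the LL34 set. With the replicate block 19 members were higher after NANCI shRNA (median 0.44) and 6 calls were lost: Abcc4 (adjusted p = 0.118), Gclm, Gsr and Blvrb after LL34 shRNA (0.128, 0.0849 and 0.0641), and the differences of Fth1 and Gsta3 (0.0599 and 0.0819). The called difference of Fth1 was lost without NANCI_control replicate 3 (0.0538) and that of Gsta3 without LL34_shRNA replicate 3 (0.0506). Array weights stopped before their convergence tolerance. Fits of a single set or with 1 control group were not run for the difference. Dim members such as Gsta3 and Abcc2 are limited by signal over background.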
